A study of Mus musculus with 6 samples.

Results

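The genes described here are the subunits of the vacuolar H+-ATPase (V-ATPase) and 8 genes of the acid-secreting intercalated cell of the kidney, 33 genes of the 55471 in the table. The set was picked on the levels of Atp6v0a4 and Tmem213, which are higher in the libraries labelled Bap1 cKO, and the other 31 genes were listed by family and not by their own values. The picking contrast is the only one the study has. The values of Atp6v0a4 and Tmem213 are therefore given as a description with no test, and the calls of the other 31 genes are counted beside the background with nothing read from them about the set.

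Poly(A) RNA was sequenced from endosteal mesenchymal stromal cells, which lie along the inner surface of bone, of C57BL/6J mice. The 3 libraries labelled Bap1 WT carry floxed Bap1 alleles without Cre (Bap1fl/fl), and the 3 labelled Bap1 cKO carry the same floxed alleles with Prx1-cre, a Cre driven by a promoter of limb mesenchyme. All 6 therefore share the floxed alleles. Neither separate animals nor a culture step is named in the labels. The p-values thus reflect the spread among these samples alone, which may be technical.

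Bap1, the gene targeted in cKO, read 22.8, 22.72 and 24.01 RPKM in WT against 28.27, 25.16 and 22.99 RPKM in cKO. RPKM scales fragments to transcript length and to the mapped total of the library. Its level was not lower in cKO (log2 difference 0.13 ± 0.10 SE, limma Benjamini-Hochberg adjusted p = 0.29). A value over the whole gene does not show whether floxed exons were removed, so the groups are called by their labels. The estimated depth was 13.2 to 15.1 megafragments in 5 libraries and 22.2 in cKO replicate 3. At those depths 3 fragments on a 1-kb transcript are worth 0.135 to 0.227 RPKM, called the floor here, which covers counting error only. In bulk RNA, fewer cells of a type and less RNA per cell cannot be told apart. Of 11 tested mesenchymal stromal markers 8 were lower and 1 higher in the cKO libraries, beside 26.5% lower and 34.7% higher over all genes tested. Prrx1 and Twist1 were not called. The summed level of the markers was 9770 to 10300 RPKM in the WT and 746 to 1570 RPKM in the cKO libraries. Vim weighs most on it, at 5780 ± 175 (SD) RPKM in WT and 862 ± 388 RPKM in cKO. The 1 higher call was lost without any 1 of the WT replicates. Most but not all tested markers of the cell type on the label were thus lower in cKO, and the part this plays in the results below was not tested.

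The V-ATPase is a rotary proton pump that acidifies lysosomes and endosomes in nearly all cells. Its cytosolic V1 sector breaks down ATP, and its membrane V0 sector carries the protons. Several subunits exist as isoforms: a broadly expressed one, and others used where cells secrete acid to the outside, as kidney intercalated cells do across their apical membrane and osteoclasts do onto bone. In intercalated cells the transcription factor Foxi1 drives the B1 and a4 subunits together with the bicarbonate exchangers that return base to the blood or the urine.

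Atp6v0a4 and Tmem213 lie on top of each other in the genome. Atp6v0a4 (ENSMUSG00000038600) spans chr6:38048483-38124586 on the minus strand (GRCm38, GENCODE M21), and Tmem213 (ENSMUSG00000029829) spans chr6:38109255-38115809 on the plus strand, wholly inside it. The exons of the pair share 62 bases, of 4973 exonic bases in Atp6v0a4 and 631 in Tmem213. The library kit keeps the strand, but whether strand was used in counting is not given in the sources used here. Without it, fragments from the shared stretch cannot be assigned to one of the pair. The 250 bases before the RefSeq start of each (GRCm38.p6) are shown because these genes stand highest against the WT libraries, with those of Atp6v0e2, a subunit gene under the floor in WT and above 12 RPKM in every cKO library. Capitals mark CG dinucleotides, and each run reads 5′ to 3′ on the strand of its gene. They lie at chr6:38124587-38124836 (minus strand), chr6:38109103-38109352 (plus strand) and chr6:48537319-48537568 (plus strand).
Atp6v0a4: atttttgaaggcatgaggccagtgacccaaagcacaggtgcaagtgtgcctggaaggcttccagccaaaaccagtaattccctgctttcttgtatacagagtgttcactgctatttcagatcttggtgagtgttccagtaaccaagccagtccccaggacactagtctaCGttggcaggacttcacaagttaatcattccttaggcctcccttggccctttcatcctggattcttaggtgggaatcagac
Tmem213: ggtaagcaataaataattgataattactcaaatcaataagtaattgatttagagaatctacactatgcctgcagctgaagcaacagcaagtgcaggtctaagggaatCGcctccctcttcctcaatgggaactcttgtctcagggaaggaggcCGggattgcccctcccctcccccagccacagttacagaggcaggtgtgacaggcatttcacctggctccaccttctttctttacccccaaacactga
Atp6v0e2: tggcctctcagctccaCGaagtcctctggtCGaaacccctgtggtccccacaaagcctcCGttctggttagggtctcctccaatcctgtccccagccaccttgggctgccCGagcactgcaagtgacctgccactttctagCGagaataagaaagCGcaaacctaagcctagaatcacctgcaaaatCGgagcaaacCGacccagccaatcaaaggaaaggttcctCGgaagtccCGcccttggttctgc

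The windows differ in CG content. That of Atp6v0a4 holds 1 CG and that of Tmem213 holds 2, while that of Atp6v0e2 holds 10, beside a median of 6 over the 32851 windows of the table and 29% of windows with at most 2. A forkhead core (TGTTTAC on either strand) was in none of the 3 windows, and was in the window of 1 of the 24 members with a window used here, Atp6v1b1, beside 3.17% of all windows. The E-box core CACGTG, the centre of the element that TFEB-type factors bind in lysosomal genes, was in those of Atp6v0b, Atp6v1a and Aqp6, and in 6.02% of all windows. A match or its absence in these letters describes the window alone.

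Atp6v0a4 encodes the a4 isoform of the V0 subunit that forms the proton path, used in the kidney, epididymis and inner ear. Its WT level was 2.72, 2.41 and 2.59 RPKM, and its cKO level was 497.75, 367.63 and 151.48 RPKM in replicates 1, 2 and 3. The groups did not overlap, and the ratio of their means was 132. Tmem213, a small membrane protein gene, had no value above 0 in WT, while cKO replicates 1, 2 and 3 gave 384.39, 237.77 and 58.95 RPKM. For both genes cKO replicate 3 was the lowest cKO library. The ratio of Tmem213 to Atp6v0a4 RPKM was 0.772, 0.647 and 0.389 in the cKO libraries, so the pair did not stand in 1 fixed proportion.

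**Figure D1:**
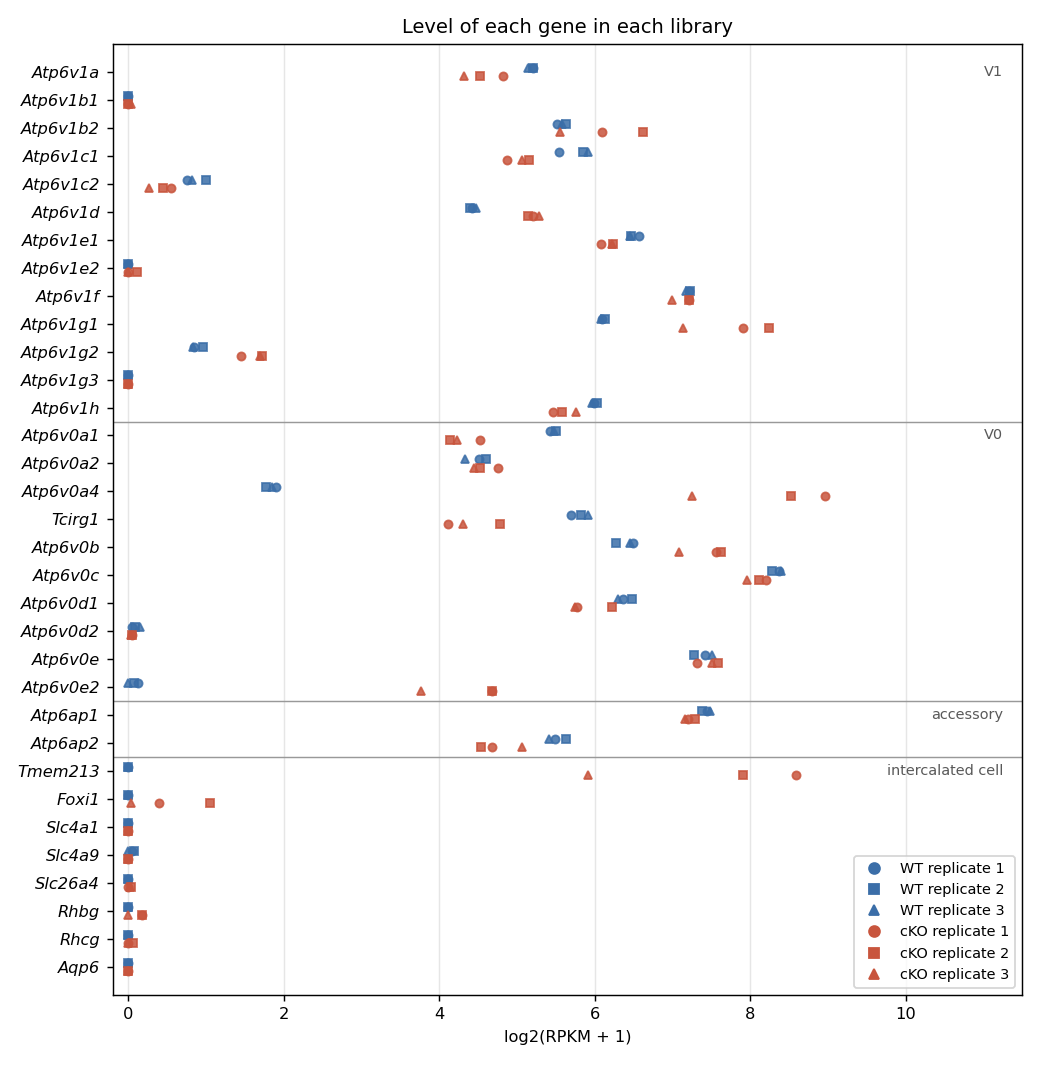
Level of the 33 genes in each library as log2(RPKM + 1), with WT libraries in blue and cKO libraries in red and 1 marker shape per replicate number. Atp6v0a4 and Tmem213 stand far right in the cKO libraries, while the other 7 intercalated cell genes lie at or near 0, apart from Foxi1 in cKO replicates 1 and 2.

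The genes beside the pair were measured as well, in a window of 300 kb on each side that was set after the values of the pair were known. It holds 8 protein-coding genes, and of the 6 other than the pair 2 were higher, 2 lower and 2 not called at a limma Benjamini-Hochberg adjusted p under 0.05, too few to set apart from the 34.7% higher and 26.5% lower over all genes tested. Svopl, a putative transporter gene that starts next to the 3′ end of Atp6v0a4, stood at 0.03, 0.26 and 0.02 RPKM in WT against 26.19, 20.53 and 6.56 RPKM in cKO (limma Benjamini-Hochberg adjusted p = 0.000515). Svopl passed the minimum for the test, a mean of 1 RPKM, through the cKO libraries alone, so its call is a description only. D630045J12Rik, on the other side, overlaps the first bases of Atp6v0a4 on the same strand, so the split of fragments between them is uncertain. It rose 3.06-fold from 2.91 ± 0.0757 to 8.91 ± 3.55 RPKM (values after ± on RPKM are SD, always with n = 3). In both, as in the pair, cKO replicate 3 was the lowest cKO library. Farther out, Trim24 fell 1.97-fold and Ttc26 fell 3.36-fold, and Zc3hav1 and Zc3hav1l did not pass, with log2 differences of 0.09 and 0.26. The median log2 difference of the 587 tested genes of chromosome 6 was −0.25.

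**Figure D2:**
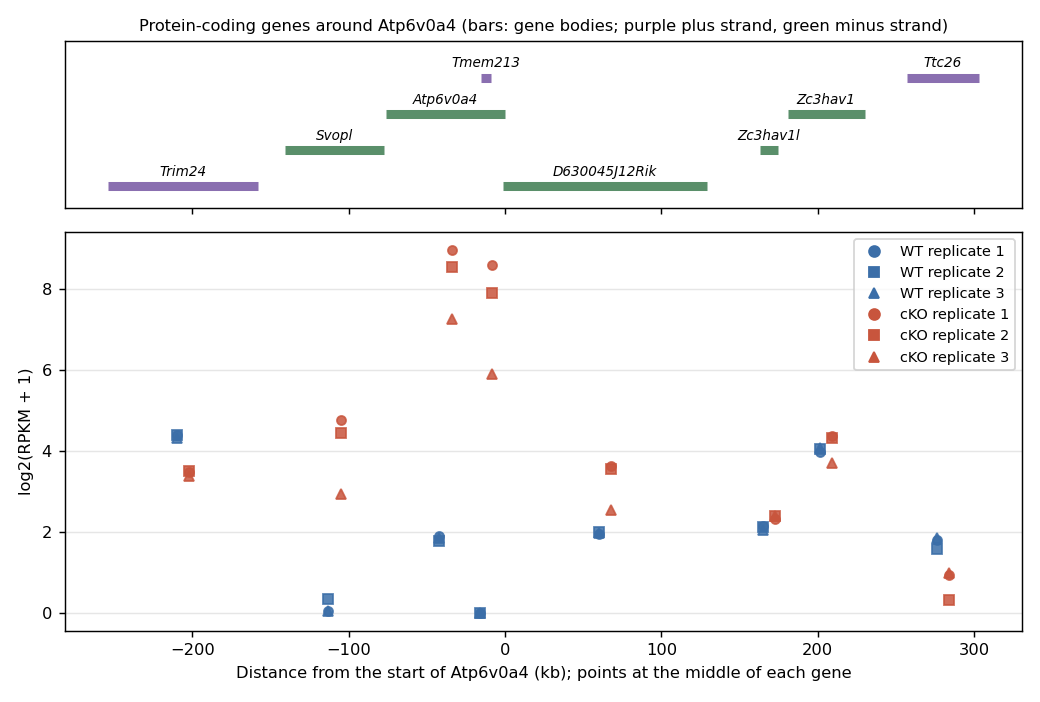
Protein-coding genes within 300 kb of Atp6v0a4, as gene bodies above and as log2(RPKM + 1) per library below, against the distance in kb from the start of Atp6v0a4 (WT blue, cKO red). Svopl, Atp6v0a4, Tmem213 and D630045J12Rik have all 3 cKO libraries above the WT libraries by the widest gaps.

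The remaining intercalated cell genes were low in both groups. None of these 7 reached a mean of 1 RPKM, the minimum for the test, and 6 of them lay under the floor in every library. The exception was Foxi1, the master transcription factor of intercalated cells, which was at 0 in all of WT and reached 0.31, 1.06 and 0.02 RPKM in cKO. In cKO replicate 3 it was under the floor, while Atp6v0a4 stood at 151.48 RPKM there. Slc4a1, the basolateral chloride-bicarbonate exchanger of acid-secreting cells and the band 3 protein of red cells, was listed at 0 in all 6 libraries, as was the intracellular water channel Aqp6. Slc26a4 (pendrin), the apical exchanger of base-secreting cells, reached at most 0.02 RPKM, and Slc4a9 at most 0.05 RPKM, in a WT library. The ammonia channels Rhbg and Rhcg reached at most 0.13 and 0.04 RPKM, in the cKO libraries. The transporters that define the cell type were thus at or near 0, which goes against an intercalated cell label. Foxi1 stood above the floor in the cKO libraries other than replicate 3, at a low level.

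Other genes known from intercalated cells went both ways. Of 18 listed, 14 had a mean under 1 RPKM, and 8 were under the floor in every library. Of the 4 tested, Car15, a membrane-bound carbonic anhydrase, rose from 0.343 ± 0.0924 to 2.76 ± 0.225 RPKM. It passed the minimum for the test through the cKO libraries alone, so its call is a description only. The potassium-chloride cotransporter Slc12a7 fell 4.96-fold and Parm1 fell 28.9-fold, while the sodium-bicarbonate cotransporter Slc4a4 had a log2 difference of −0.22 and did not pass. The cytosolic carbonic anhydrase Car2, abundant in intercalated cells, was untested at 0.98, 1.57 and 1.49 RPKM in the WT and 0.09, 0.13 and 0.12 RPKM in the cKO libraries. Tfcp2l1, a collecting duct transcription factor that acts beside Foxi1, was at most 0.03 RPKM in WT against 1.41, 0.61 and 0.82 RPKM in cKO, also under the minimum. The transcription factor Dmrt2 (0, 0.03 and 0 RPKM in WT, 0.38, 0.38 and 0.32 in cKO) and the potassium channel gene Kcnma1 (0, 0.1 and 0.11 in WT, 0.34, 0.34 and 0.24 in cKO) were untested too, with every cKO library above WT. With no minimum, or one of 0.1 RPKM, 4 genes of the list were called higher in place of 1, and 3 lower in place of 2. Over all genes tested the main fit called 34.7% higher and 26.5% lower. Calls over all genes grew under these settings too, to 4714 and 4865 higher in place of 4237. The lower calls grew to 3862 and 3804 in place of 3239.

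Among the V-ATPase subunits, all 16 broadly expressed isoforms passed the minimum, and of the 8 more restricted isoforms other than Atp6v0a4 only 3 did. Over the 31 genes listed by family, 19 were tested, and 5 were called higher and 10 lower at a limma Benjamini-Hochberg adjusted p under 0.05. Over all 12223 genes tested the same rule called 34.7% higher and 26.5% lower. Of the 5 higher genes, Atp6v0e2 and Atp6v1g2 averaged 0.0467 and 0.84 RPKM in WT and passed the minimum only through the cKO libraries. The median log2 difference of the 19 was −0.22, beside 0.09 over all genes tested. The 12 that were not tested comprise the 7 intercalated cell genes and 5 restricted subunit isoforms.

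**Figure D3:**
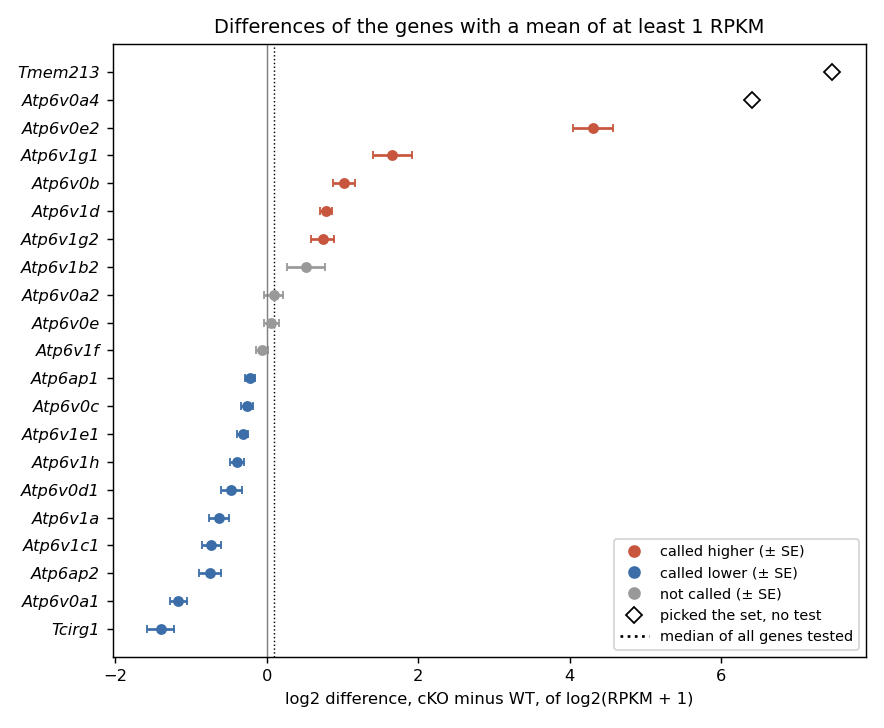
Difference of the mean log2(RPKM + 1), cKO minus WT, for the 21 genes that passed the 1 RPKM minimum, with bars of 1 SE and colours for the limma calls. Open diamonds are the 2 genes that picked the set and carry no test, and the dotted line is the median of all genes tested, at 0.09.

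The V0 subunit a has 4 isoforms, and their RPKM summed to 117, 126 and 124 in WT and to 562, 433 and 209 in cKO. Atp6v0a4 made up 2.33, 1.92 and 2.09% of that sum in WT and 88.6, 84.9 and 72.5% in cKO, shares that follow from the value that picked the set. The other isoforms went down or were level. Tcirg1, the a3 isoform that osteoclasts place in their ruffled border, stood at 50.5, 55.63 and 58.93 RPKM in WT against 16.32, 26.56 and 18.75 RPKM in cKO. It fell 2.68-fold, by 1.40 ± 0.18 (SE) on the log2 scale (limma Benjamini-Hochberg adjusted p = 0.000651). Atp6v0a1, the broadly expressed a1 isoform, stood at 41.74, 44.4 and 43.48 RPKM in WT and at 21.98, 16.66 and 17.8 RPKM in cKO, a 2.30-fold fall. Atp6v0a2, the Golgi-associated isoform, did not pass, at 21.4 ± 2.08 and 22.9 ± 2.67 RPKM.

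Without Atp6v0a4, the remaining isoforms of subunit a summed to 120 ± 4.95 RPKM in WT and 62.3 ± 4.29 RPKM in cKO. Subunit d, which sits at the base of the V0 ring and is used once per pump with subunit a, summed to 82.3 ± 5.64 and 59.9 ± 11.8 RPKM. The summed subunit a stood at 1.44, 1.42 and 1.60 times subunit d in WT and at 10.5, 5.89 and 3.97 times in cKO. Left without Atp6v0a4 that ratio was 1.46 ± 0.0979 in WT and 1.06 ± 0.157 in cKO. The ratio with Atp6v0a4 rests on the value that picked the set and is a description only.

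**Figure D4:**
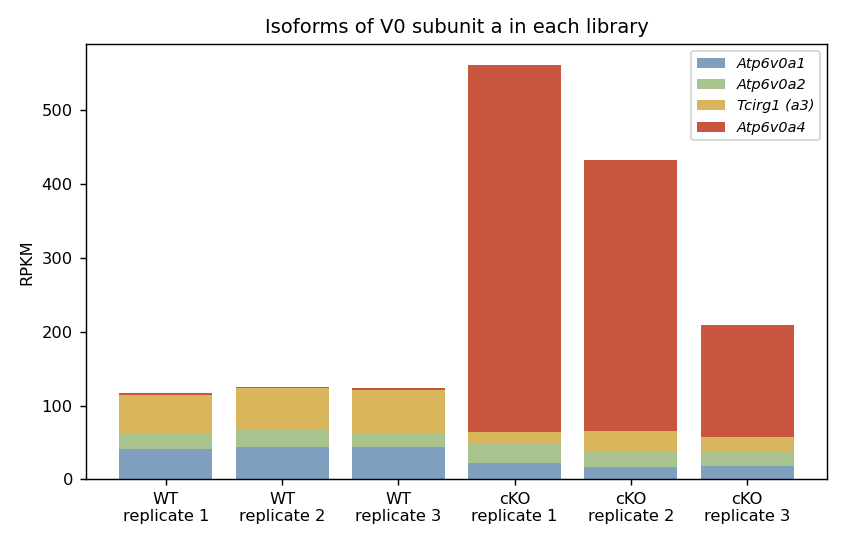
Stacked RPKM of the 4 isoforms of V0 subunit a in each library. The 3 WT bars reach 117 to 126 RPKM with a thin Atp6v0a4 layer, and the cKO bars reach 209 to 562 RPKM, most of it Atp6v0a4.

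Summed over isoforms, the other V0 subunits moved by less than subunit a with Atp6v0a4 counted. Subunit e summed to 168 ± 12.9 RPKM in WT and 197 ± 16.5 RPKM in cKO, but its isoforms differed. Atp6v0e2, an isoform of subunit e best known from brain, stood at 0.09, 0.05 and 0 RPKM in WT against 24.62, 24.55 and 12.62 RPKM in cKO. It rose (limma Benjamini-Hochberg adjusted p = 3.58e-05) and made up 13.5, 11.4 and 6.54% of subunit e in the cKO libraries. Atp6v0e2 passed the minimum for the test through the cKO libraries alone, so its call is a description only. Its broad counterpart Atp6v0e stood at 168 ± 12.9 and 176 ± 16.7 RPKM and did not pass. Atp6v0e2 lies on chromosome 6 as Atp6v0a4 does, at chr6:48537615-48541801.

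Atp6v0b, the c″ subunit of the proton-carrying ring, stood at 88.61, 76.15 and 86.67 RPKM in WT against 188.06, 195.85 and 133.9 RPKM in cKO, and rose 2.06-fold. Atp6v0c, the main ring subunit and the most abundant of the V-ATPase genes per length in WT, was at 325 ± 13 RPKM in WT and 272 ± 23.5 RPKM in cKO, a 1.19-fold fall. Atp6v0d1 fell 1.37-fold, and its osteoclast counterpart Atp6v0d2 was under the floor in all 6 libraries, at most at 0.11 RPKM. The falls of Atp6v0c (limma Benjamini-Hochberg adjusted p = 0.0293) and Atp6v0d1 (0.0258) were small, and each lost its call in several alternatives, with adjusted p ranging from 0.00506 to 0.306 and from 0.00218 to 0.0898 over 18 of them. Atp6v0d1 lost it without any 1 of WT replicates 1, 2 and 3 and cKO replicates 1 and 3 (0.0711, 0.0898, 0.0541, 0.0794 and 0.0561). Atp6v0c lost it without WT replicate 1 or 3 or cKO replicate 2 (0.0951, 0.0994 and 0.0526).

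Of the 9 tested V1 genes, 3 were higher (33.3%), 4 lower (44.4%) and 2 not called, beside 34.7% higher and 26.5% lower over all genes tested. Atp6v1g1, a subunit of the peripheral stalk, stood at 67.02, 69.23 and 66.66 RPKM in WT against 238.33, 301.91 and 139.82 RPKM in cKO. It rose 3.35-fold, by 1.66 ± 0.26 on the log2 scale (limma Benjamini-Hochberg adjusted p = 0.00176), the largest rise of a broadly expressed subunit here. Atp6v1d, of the central rotor, rose 1.75-fold from 20.5 ± 0.638 to 36 ± 1.87 RPKM, with little spread among the cKO libraries. Atp6v1g2, a stalk isoform of neurons, rose 2.48-fold but stayed low, at 2.08 ± 0.307 RPKM.

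The catalytic subunit Atp6v1a stood at 35.96, 35.93 and 34.15 RPKM in WT and at 27.14, 22 and 18.95 RPKM in cKO, a 1.56-fold fall. Its partner in the catalytic ring, Atp6v1b2, stood at 44.68, 48.41 and 46.57 RPKM in WT and at 67.23, 97.7 and 45.95 RPKM in cKO. Here the groups overlapped through cKO replicate 3, and the gene did not pass in the main fit (limma Benjamini-Hochberg adjusted p = 0.114). Atp6v1b2 did pass without that library (0.00596, in a range of 0.00596 to 0.243 over 18 alternatives). With all libraries it passed with chromosomes centred (0.034) and with sample weights (0.0104). Atp6v1c1, which links V1 to V0 and governs their assembly, fell 1.69-fold from 53.7 ± 7.05 to 31.8 ± 3.17 RPKM. Atp6v1h, the other assembly subunit, fell 1.32-fold, and Atp6v1e1, of the peripheral stalk, fell 1.25-fold. Atp6v1f, at 147 ± 3.08 and 141 ± 11.9 RPKM, did not pass.

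Of the other restricted V1 isoforms, 3 were at or near 0 in both groups and 1 was low but above the floor. Atp6v1b1, the B1 isoform that pairs with a4 in intercalated cells, was listed at 0 in 5 libraries and at 0.02 RPKM in cKO replicate 3. Atp6v1g3, the kidney isoform of the stalk, was listed at 0 in all 6. Atp6v1e2, a testis isoform, was listed at 0 in 5 libraries and at 0.08 RPKM in cKO replicate 2. Atp6v1c2, an epithelial isoform, stood at 0.68, 1 and 0.76 RPKM in WT against 0.46, 0.36 and 0.2 RPKM in cKO, under the minimum for the test. The cKO libraries thus had a4 at 151.48 to 497.75 RPKM beside the broad isoforms B2, C1 and G1, while the epithelial C2 was at 0.2 to 0.46 RPKM and B1 and G3 were under the floor.

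Both accessory subunits were lower, as were 26.5% of all genes tested. Atp6ap2, the (pro)renin receptor, fell 1.69-fold from 44.6 ± 3.68 to 26.5 ± 5.38 RPKM. Atp6ap1, needed for assembly of V0, was at 172 ± 6.67 and 148 ± 7.15 RPKM, a 1.17-fold fall (limma Benjamini-Hochberg adjusted p = 0.026) whose adjusted p ran from 0.00586 to 0.347 over 18 alternatives. It lost its call without WT replicate 1 or 3 or cKO replicate 1 (0.0844, 0.0944 and 0.0627).

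Whole chromosomes differed between the groups, and some subunits lie on those that did. Atp6v1g1 and Atp6v0b lie on chromosome 4, whose tested genes had a median log2 difference of 0.44, against 1.66 and 1.02 for the 2 subunits. Atp6v1d (0.78) belongs to chromosome 12 (median 0.58) and lost its call with each chromosome centred on its median (limma Benjamini-Hochberg adjusted p = 0.0533, the highest of 18 alternatives, the lowest being 0.000117). Atp6v1e1 (−0.32) belongs to chromosome 6 (median −0.25) and lost its call in the same way (0.626, in a range of 0.00275 to 0.626). Atp6v0a1 (−1.17) went against chromosome 11, where the median was 0.42. The genes Atp6v0a4 and Atp6v0e2 (6.41 and 4.31) likewise went against their chromosome.

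Genes that assemble or regulate the pump went both ways. Of 15 listed 14 were matched and 13 tested, of which 6 were higher and 2 lower, with a median log2 difference of 0.28, beside 34.7% higher, 26.5% lower and a median of 0.09 over all genes tested. The lower count was 5 without cKO replicate 3, and the higher count was 3 with chromosomes centred. Oxr1, whose TLDc domain binds V1, fell 10.5-fold from 248 ± 3.83 to 23.8 ± 1.67 RPKM, and Rnasek, a small protein associated with V0, fell 1.83-fold. Tmem9 and Tmem9b rose 1.85-fold and 1.86-fold. The V1 and V0 assembly protein Dmxl2 rose from 1.8 ± 0.44 to 3.87 ± 0.753 RPKM, and its paralog Dmxl1 did not pass.

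The lysosome list holds enzymes that need the acid the pump makes, membrane proteins and their regulators. Of 19 tested, 11 were lower and 3 higher, with a median log2 difference of −0.37, beside 26.5% lower, 34.7% higher and 0.09 over all genes tested. Without WT replicate 1 or cKO replicate 2 the higher count was 1. Lamp1, the major lysosomal membrane protein, fell 2.20-fold from 646 ± 6.33 to 293 ± 33.9 RPKM, the alpha-galactosidase gene Gla fell 2.52-fold, and the transcription factor Mitf fell from 2.43 ± 0.281 to 0.163 ± 0.0306 RPKM. The sialidase gene Neu1 rose 28.6-fold from 7.79 ± 0.646 to 223 ± 56.4 RPKM. Tfeb, the regulator of lysosomal genes, stood at 5.29, 4.95 and 7.23 RPKM in WT against 12.01, 12.84 and 7.04 RPKM in cKO, where replicate 3 overlapped the WT group.

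Markers of cells that could carry these subunits were given the same reading. Beside the counts here and in the next paragraph stand 34.7% higher and 26.5% lower over all genes tested. Among principal cell genes of the collecting duct, 2 of 14 were tested: Hsd11b2 was higher, at 0, 0, 0.04 RPKM in WT and 4.67, 0.49 and 1.76 in cKO, and Npnt was lower. The call of Hsd11b2 was lost without any 1 of the WT replicates. The water channel Aqp2 reached at most 0.28 RPKM, and Aqp4, Avpr2 and Scnn1g were listed at 0 throughout. Of 12 proximal tubule markers 7 were listed at 0 in all libraries, and the 1 tested, Aqp1, did not pass. Cubn was untested, at 2.02, 1.64 and 1.8 RPKM in WT and 0.05, 0.04 and 0.1 RPKM in cKO. Of 12 markers of the thick limb and distal convoluted tubule, S100g alone was tested and was higher, at 0 in WT and at 5207.36, 4665.89 and 1604.13 RPKM in cKO, while Umod, Calb1 and Trpv5 were listed at 0 throughout. Trpm6 (0.1, 0.14 and 0.09 RPKM in WT, 1.4, 0.71 and 1.47 in cKO) and Cldn10 (0 in WT, 0.3, 0.5 and 0.11 in cKO) were untested with every cKO library above WT. Egf (1.5, 1.1 and 0.74 RPKM in WT, 0.39, 0.39 and 0.41 in cKO) and Slc12a1 (0.27, 0.41 and 0.28 in WT, 0.21, 0.12 and 0.06 in cKO) were untested with every cKO library below WT. With a minimum of 0.1 RPKM, 3 genes of the list were called higher and 1 lower, beside 4865 higher and 3804 lower over all genes at that minimum. Of 11 kidney lineage factors 4 were tested, of which 2 were higher and 2 lower. Another 4, Wt1, Grhl2, Sim1 and Emx1, were listed at 0 throughout. Pax8 and Six2 were higher and Emx2 was lower. Untested were Ret (0.62, 0.76 and 0.74 RPKM in WT, 0.06, 0.12 and 0.03 in cKO) and Pax2 (0 in WT, 1.17, 1.08 and 0 in cKO). Pax8 stood at 0.173 ± 0.0473 and 183 ± 59.6 RPKM, and Six2 was listed at 0 in WT and stood at 13.2 ± 0.668 RPKM in cKO. Hsd11b2, S100g, Pax8 and Six2 passed the minimum for the test through the cKO libraries alone, and Npnt through the WT libraries alone. Their calls are thus a description only.

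Of 10 epithelial markers 2 were tested, of which Krt19 was lower and Krt7 did not pass. Epcam and Cdh1 reached at most 0.29 and 0.12 RPKM. Of 10 osteoclast markers 3 were tested, of which Ctsk and Nfatc1 were lower and none higher, and the defining genes Acp5, Calcr and Dcstamp stood at 0.13 RPKM or less in every library. The summed level of the 10 was 52.4 to 55.1 RPKM in WT and 8.27 to 14.3 RPKM in cKO, on which Ctsk and Nfatc1 weigh most. Any link to the level of Tcirg1 was not tested. Of 10 leukocyte markers 3 were tested, with Cd68 higher and Fcer1g and Cd14 lower, and Ptprc reached at most 0.03 RPKM. None of the 9 erythroid markers matched was tested, and their summed level was 0.19 to 0.30 RPKM in WT and 0.22 to 2.76 RPKM in cKO.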

How the data were processed

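The authors deposited RPKM values for 55471 Ensembl gene identifiers in 6 columns, 1 per library, with 2 decimals. Reads were handled with cutadapt 2.8, with STAR 2.7.1a and with RSEM 1.3.1 on GRCm38, per the submitters' processing notes, which give no roles. The annotation and the use of strand in counting are not given in the sources used here. GENCODE M21 supplied symbols and positions for 55230 identifiers. All 33 genes matched 1 identifier each by symbol, and the list genes Meak7 and Ahsp were not matched. Members and lists were chosen with earlier results of these data known. Named are all 33 members, up to 4 tested genes with the smallest p of each of 12 lists and list genes at 0 throughout, of which the text gives most; 1 list gene is not reported here. Dmxl2, Dmxl1, Tfeb, Car2, Tfcp2l1, Dmrt2, Kcnma1, Trpm6, Cldn10, Aqp2, Epcam, Cdh1, Acp5, Ptprc and the neighbours of Atp6v0a4 were chosen after their values were seen. So were Egf, Slc12a1, Cubn, Ret, Pax2, Prrx1 and Twist1.

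Tests used limma 3.58.1 in R 4.3.3 on log2(RPKM + 1), 2-sided, with a mean-dependent variance prior, on genes averaging 1 RPKM or more. That average is over all 6 libraries, so a gene near 0 in 1 group could pass through the other group alone. Atp6v0e2, Svopl, Car15, Hsd11b2, S100g, Pax8 and Six2, among others, passed through cKO in this way. Genotype was the only term, and Benjamini-Hochberg adjusted p under 0.05 over all 12223 genes made a call. A log2 difference on this scale understates the change of low genes. With 3 against 3 an exact permutation test cannot go below 0.1, so calls rest on limma's pooled spread. Folds are ratios of mean RPKM, left out where a library of the lower group was under the floor. Low values of genes with 1 transcript of 800 to 3500 bp, less 150 bp, move in steps, whose size gave the depth. Between 81.4 and 93.1% of them came within 0.2 of whole fragments, where an even spread gives 40%. The procedure was tested on simulated data. Alternatives were other pseudocounts, minimums, scalings, variance priors and weights, chromosome centring, a replicate block and leaving out each library. Same-numbered libraries of the groups did not deviate together over the tested genes as a whole, so the main fit has no block. Promoter windows came from RefSeq (GRCm38.p6) and were used for 24 of the 33 genes. Any window on chromosome 18, where Slc4a9 lies, was left out of the member counts. Tables were made in Python 3.11.15 with pandas 2.3.3 and numpy 2.4.6, and plots with matplotlib 3.10.9.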

Additional observations from a re-analysis of the deposited data

How the results depend on the processing

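Over 18 alternatives the 19 tested genes gave 341 values, of which 309 kept both direction and side of the threshold, 22 lost a call, 3 gained one and 7 changed sign. All sign changes were in genes without a call: Atp6v0a2 under median-of-ratios scaling (−0.0036), quantile normalization (−0.01) and chromosome centring (−0.09), Atp6v0e under median of ratios (−0.04) and chromosome centring (−0.06), and Atp6v1f under chromosome centring (0.21) and without cKO replicate 3 (0.01, in a range of −0.1 to 0.01 with 1 library left out). The median log2 difference of the tested members was −0.32 under median of ratios, −0.11 under quantile normalization and −0.09 with chromosomes centred, against −0.22, and −0.26 to −0.19 with 1 library left out. Members called higher and lower numbered 5 to 6 and 7 to 9 with 1 library left out. With the replicate number as a block 5 members were higher and 8 lower, and 3811 genes in all were higher and 2938 lower. The calls of Atp6v0c and Atp6ap1 were lost there (limma Benjamini-Hochberg adjusted p = 0.0674 and 0.0913). The correlations between deviations of same-numbered libraries were −0.017, 0.05 and −0.019, so no shared deviation was seen over the tested genes as a whole. A pairing that acts on few genes would not show there. Atp6v0c and Atp6ap1 also lost their calls with equal totals (0.0517 and 0.0524), quantile normalization (0.306 and 0.106) and a constant variance prior (0.0598 and 0.0613), and Atp6ap1 with chromosomes centred (0.347). Of 432 counts over the lists, 41 moved by over 1.5 times, most of them with another minimum. For assembly genes the lower count was 4 under median of ratios, quantile normalization and sample weights, against 2. The untested difference of Tmem213 was 10.78 with a pseudocount of 0.1, against 7.47, since its WT libraries are at 0. The causes of the other shifts were not tested. Depth limits the silent isoforms: levels under the floor rest on few fragments per kb of transcript, and a listed 0 does not show absence.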
